A study of Caenorhabditis elegans with 12 samples.

Results

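The 9 genes described here belong to the DLK-1 to PMK-3 cascade of Caenorhabditis elegans, a p38 type MAP kinase pathway. They were taken by name from a table of 30301 genes, and all 9 passed the filter on low values that left 15529 genes for testing. All 5 transcript models of dlk-1 were read, and for each other gene the model with the highest mean was used. cebp-1 stands in the table under its sequence name D1005.3. sek-3 stands under ZC449.3 and was matched through the gene name in the WBcel235 annotation.

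DLK-1 is a dual leucine zipper kinase that acts on the kinase MKK-4, which acts on the p38 kinase PMK-3. The cascade is best known from neurons of the worm, where it is needed for axon regrowth and where the ubiquitin ligase RPM-1, with its F-box partner FSN-1, keeps DLK-1 low. Downstream, the kinase MAK-2 and the transcription factor CEBP-1 carry the signal, and in touch neurons the pathway is known to raise cebp-1 mRNA. DLK-1, SEK-3 and PMK-3 are also known to be needed for the response of worms to mitochondrial dysfunction, with the tubulin gene tbb-6 as a readout.

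RNA from whole worms was sequenced in 4 groups of 3 libraries. These were dlk-1 mutants with 1 mM fluvastatin, dlk-1 mutants with 0 mM, wild type with 1 mM and wild type with 0 mM. Fluvastatin is a statin, an inhibitor of HMG-CoA reductase, and exposure lasted 9 h from the fourth larval stage. The titles call the mutant a p38 knockout while the culture protocol names dlk-1, and neither the allele nor the wild-type strain could be read from the labels. Several plates of synchronised animals were raised per condition. Whether the replicates grew apart is not stated, and the p-values therefore reflect how far these libraries scatter, which may be technical.

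Depth was 9370975 to 12438131 reads a library, counted over the kept model of each gene. On the first principal component of the log2 values, with 58.5% of the variance, all 4 libraries of replicate 2 stood apart, and the second (14.4%) parted fluvastatin from control. For this reason each result is given without a replicate term and, where the call differs, with the replicate number as a block. Each SE and interval in the text is from the fit without a replicate term, also where a blocked p-value stands beside it. Each of 15 neuron markers, 8 muscle markers and 7 intestine markers had at least 10 normalised reads in every library. In whole-animal RNA, fewer cells of a type and less RNA per cell cannot be told apart.

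Coordinates are those of WBcel235. dlk-1 (F33E2.2) lies on chromosome I, 12565800 to 12572801, on the minus strand. mkk-4 (F42G10.2) lies on chromosome X, 10027856 to 10030130, sek-3 on X, 5017891 to 5021098, pmk-3 (F42G8.4) on IV, 8139219 to 8143154, and mak-2 (C44C8.6) on IV, 885344 to 890200, all on the plus strand. cebp-1 lies on X, 1452695 to 1453868, on the minus strand. uev-3 (F26H9.7) lies on I, 9310319 to 9312642, on the plus strand and overlaps F26H9.5. The repressor genes are rpm-1 (C01B7.6) on V, 8805399 to 8819955, on the minus strand, which overlaps C01B7.11, and fsn-1 (C26E6.5) on III, 4937322 to 4939453, on the plus strand. The library kit does not mark strand, so reads from overlapping genes could not be parted.

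The first comparison was between mutant and wild type, and it checks the labels at the mutated gene itself. dlk-1 had 792, 706 and 804 normalised reads in mutants with fluvastatin, against 1419, 983 and 1345 in wild type with fluvastatin. Without fluvastatin it had 481, 541 and 506 in mutants and 961, 791 and 911 in wild type. At each dose every mutant library was below every wild-type library, and none was near 0. Such a gap in the same direction was seen for 1.79% of all genes at 0 mM, for 3.0% at 1 mM and for 0.522% at both. Across doses the ranges overlapped, with a mean of 767 ± 53.2 in mutants with fluvastatin and 888 ± 87.4 in wild type without it (SD, n = 3 each).

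The averaged log2 difference of dlk-1 between mutant and wild type was -0.74 (95% confidence interval -0.96 to -0.52), a 0.598-fold level, and it was lower in 6 of 6 pairs with the same replicate number, as 4.35% of all genes were. Over all genes this did not pass in limma without a replicate term (adjusted p = 0.125), and it did with the replicate block (adjusted p = 0.000525). At the single doses the differences were -0.80 ± 0.14 and -0.69 ± 0.14 (SE) at 0 and 1 mM. With limma's replicate block these had an adjusted p of 0.0110 and 0.0218, against 1.0 for both without it. dlk-1 was the 1 member called with the block in each of these comparisons, in which the block called 0.0966% of all genes at 0 mM, 0.27% at 1 mM and 1.04% for the mean. Without the block 0 of 9 members and 0.0% of all genes were called by limma in all 3. At an unadjusted p under 0.05 the 1 member was again dlk-1 in each, and DESeq2 on the recovered reads called it in each (adjusted p = 0.00145, 0.0146 and 2.69e-08). For DESeq2 and for unadjusted p-values the shares of all genes or transcript rows are not given, here or below. Counts under these rules therefore have no background beside them.

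The averaged call with the block held when any of the 12 libraries was left out (adjusted p between 6.49e-05 and 0.0056). It was lost when all 4 libraries of replicate 3 were left out (0.0619) and held without those of replicate 1 (0.00506) or 2 (0.000361). Both single-dose calls were lost without replicate 1 (0.0579 at 0 mM and 0.0888 at 1 mM) or replicate 3 (0.455 and 0.318). With single libraries left out, the call at 0 mM was lost without mutant control replicate 3 or any of the 3 wild-type control libraries (0.0804 to 0.112), and at 1 mM without any of the 3 mutant fluvastatin libraries or wild-type fluvastatin replicate 1 or 3 (0.0826 to 0.154). Without a replicate term, leaving out wild-type fluvastatin replicate 2 brought the averaged difference past the threshold (-0.82, adjusted p = 0.0194).

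**Figure D1:**
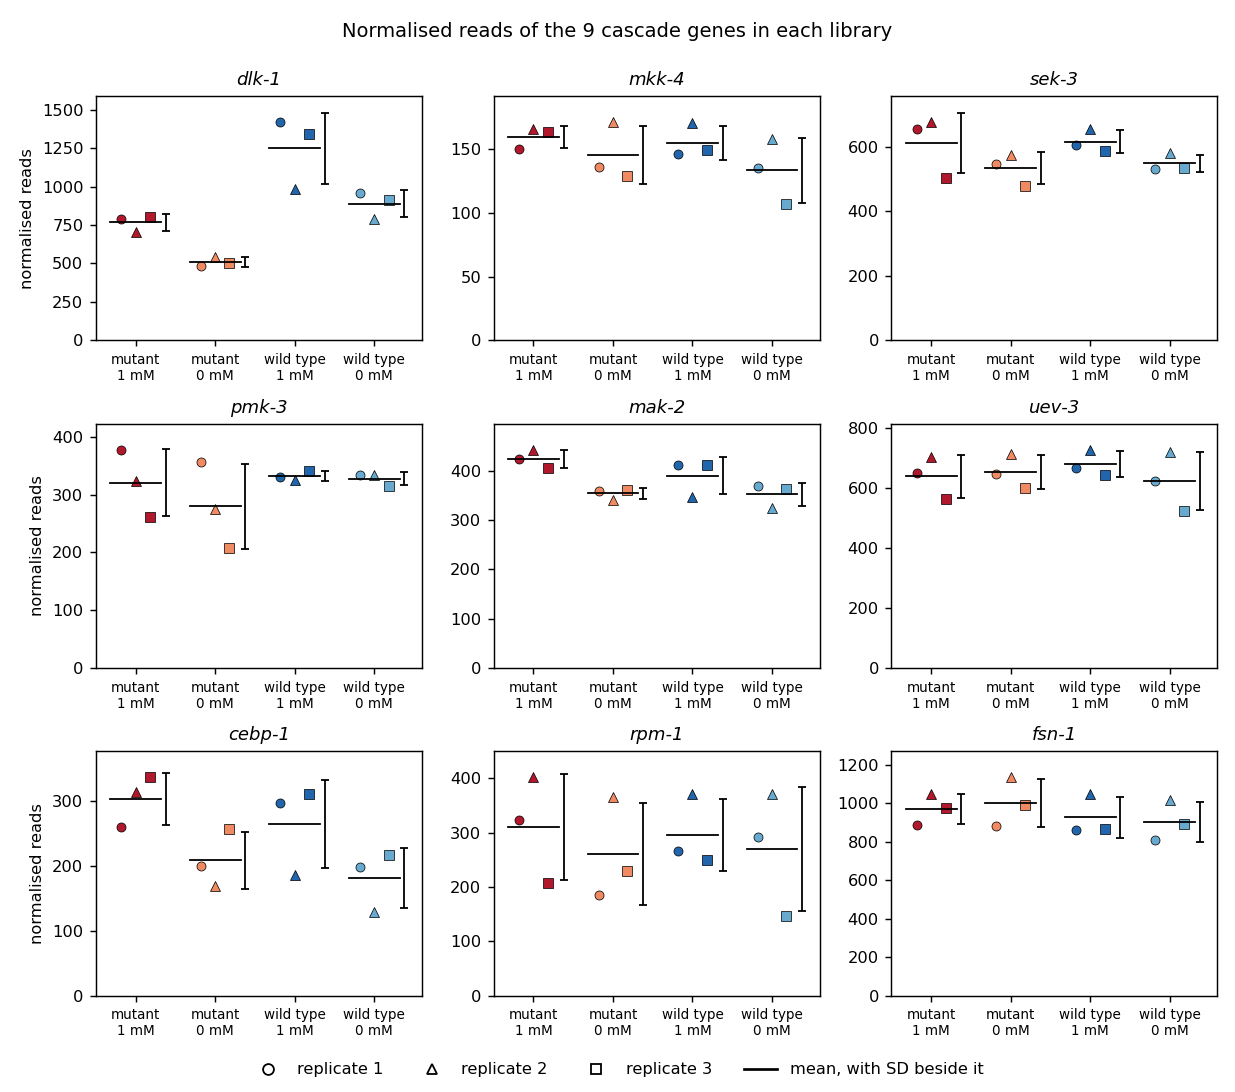
Normalised reads (vertical axes, from 0) of the 9 cascade genes in the 4 groups (horizontal axes), with 1 symbol per library and its shape showing the replicate number. Horizontal lines are group means and the bars beside them are SD (n = 3). dlk-1 stands apart by genotype at each dose, with 481 to 804 in mutants and 791 to 1419 in wild type, and rpm-1, uev-3 and fsn-1 are highest in replicate 2 of every group.

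The other 8 members did not pass between mutant and wild type in either fit at either dose or for the mean. Their averaged log2 differences lay between -0.16 for pmk-3 and 0.22 for cebp-1, and the lowest adjusted p with the block was 0.273, for fsn-1. The median over the 9 members was 0.017, beside 0.014 over all genes tested. The intervals here come from the fit without a replicate term, so differences between replicate numbers enter into them. For rpm-1 the replicate number took 68.9% of the spread over the 12 libraries. Within that fit the intervals show how large a change each gene could still hold. For rpm-1 the 95% interval of the averaged difference ran from -0.58 to 0.61, for cebp-1 from -0.19 to 0.63, and for mak-2 from -0.09 to 0.22.

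pmk-3, the p38 kinase of the cascade, was not called between genotypes, but its values differed in spread. It had 377, 324 and 261 normalised reads in mutants with fluvastatin, against 330.3, 325 and 341 in wild type with fluvastatin. Without fluvastatin it had 356, 275 and 208 in mutants and 334, 334 and 314 in wild type. In mutants at both doses replicate 1 was the highest and replicate 3 the lowest, while the 6 wild-type libraries stayed within 314 to 341. The SD was 58.3 and 73.9 in the mutant groups and 8.29 and 11.2 in the wild-type groups, and this difference in spread was noticed in the values and was not tested. The averaged log2 difference of pmk-3 was -0.16 (interval -0.46 to 0.13).

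The deposited table holds 5 transcript models of dlk-1, named a to e. In the WBcel235 annotation models a and b span the gene, d starts further in, c holds the 5′ part and ends early, and e holds the 3′ part. The worm gene is known to give a long active DLK-1 and a short form that inhibits it. Models c (1734 bases) and e (624 bases) share 0 exonic bases there, so by this annotation the pair would read separate stretches of the gene. The models behind the deposited values may differ from it. Every other pair of models shares bases, and 1699 bases of c and all of d and e lie within a. The same reads can therefore count on several models, and a count of models called is not a count of separate readings. Only a and b share bases with the opposite-strand gene mec-19 (96), and mec-19 itself had 8.33 to 28.5 normalised reads.

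Model c had 357, 273 and 363 normalised reads in mutants with fluvastatin, against 755, 499.7 and 761 in wild type with fluvastatin. Without fluvastatin model c had 171, 244 and 237 in mutants and 501, 437 and 557 in wild type. Model e had 117, 122 and 115 in mutants with fluvastatin, against 172, 147 and 171 in wild type with fluvastatin, and 89.4, 78.1 and 60.5 in mutants without it, against 136, 88.6 and 97.3 in wild type without it. Model c was apart between genotypes at each dose, and model e overlapped without fluvastatin. The share of all transcript rows that were apart in this way was not counted. As a share of the wild-type mean, the mutant mean was 43.6% for c and 70.9% for e at 0 mM, and 49.3% for c and 72.5% for e at 1 mM, with a, b and d between 56.6% and 61.7%.

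**Figure D2:**
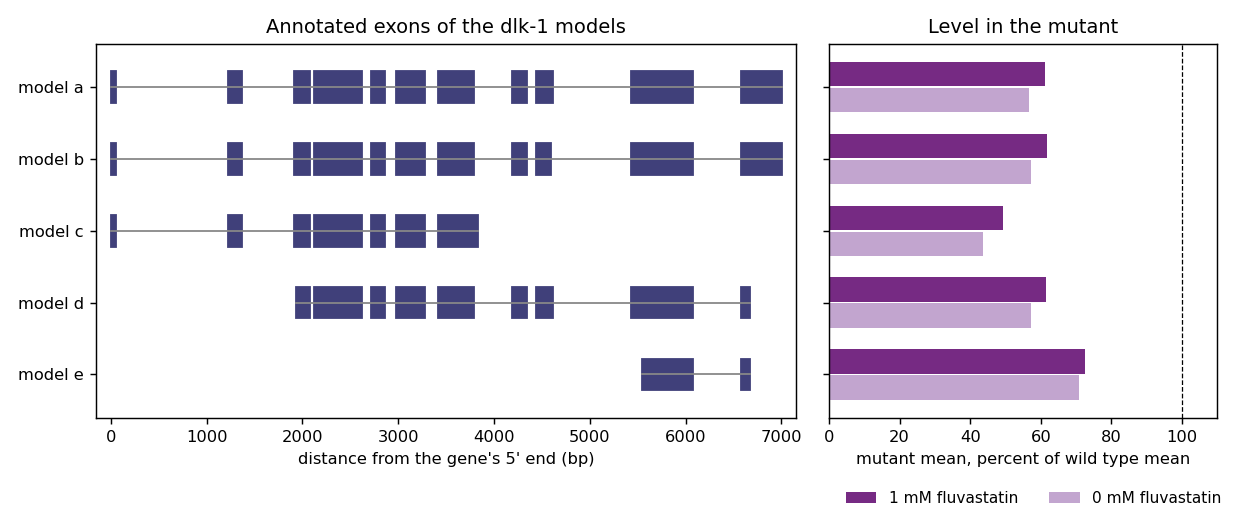
Left, annotated exons (boxes) of the 5 dlk-1 models in WBcel235, by distance in bp from the gene's 5′ end. Right, mean level in the mutant as a percent of the wild-type mean for each model (n = 3 libraries a group), with 1 mM above 0 mM. All bars are below 100%, and model c, at 43.6% and 49.3%, is the lowest at each dose.

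With limma and the replicate block over 19834 transcript rows, models a to d were called lower in the mutant at both doses and for the mean, and model e was not (adjusted p = 0.496, 0.394 and 0.058). The block called 0.131% of all transcript rows at 0 mM, 0.171% at 1 mM and 0.908% for the mean. Without a replicate term none of the 5 models was called between genotypes by limma (adjusted p = 0.0818 for a to d for the mean), and at an unadjusted p under 0.05 all 5 were. The log2 difference for the mean was -1.10 ± 0.14 for model c and -0.47 ± 0.14 for model e (SE).

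The ratio of model c to model e describes the gap between these models within each library. It was 3.04, 2.24 and 3.16 in mutants with fluvastatin, against 4.39, 3.40 and 4.46 in wild type with fluvastatin. Without fluvastatin it was 1.91, 3.12 and 3.92 in mutants and 3.69, 4.93 and 5.72 in wild type. The ratio was lower in the mutant in 6 of 6 pairs, by 0.50 to 0.95 on the log2 scale, with a mean difference of -0.63. The pair was chosen after the model values were seen, because c was the most and e the least lowered in the mutant, so the ratio is a description. A rearrangement test was run on it, but the same values had chosen the pair, so its p-value is not used. The deposited value of d exceeded that of a in 12 of 12 libraries although the annotated bases of d lie within a, so the models behind the table may differ from those of WBcel235.

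The second comparison was between fluvastatin and control, and it asks whether the drug moved the cascade's own transcripts. Over both genotypes 8 of 9 members had a positive log2 difference, with a median of 0.19, beside 0.0057 over all genes tested. The members were chosen with earlier results of these data known, so their counts are a description. limma without a replicate term called 1 of them, dlk-1, where 3.29% of all genes were called in either direction and 2.09% as higher. With the replicate block 4 were called, all higher, where 12.5% of all genes were called in either direction and 5.94% as higher. These were the kinase genes dlk-1, mak-2 and sek-3 and the transcription factor gene cebp-1. In single genotypes the block called dlk-1 and cebp-1, where it called 6.31% of all genes in the mutant and 7.03% in wild type. Without it 0 of 9 members were called by limma, against 1.38% of all genes in the mutant and 1.82% in wild type. DESeq2 called 1 in each, dlk-1, and at an unadjusted p under 0.05 limma listed dlk-1 and mak-2 in the mutant and dlk-1 in wild type. The shares of all genes under these rules are not given.

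dlk-1 rose by a log2 of 0.53 (95% interval 0.31 to 0.75) over both genotypes, 1.45-fold, in 6 of 6 pairs (limma adjusted p = 0.0124, and 0.000176 with the block). In the mutant it was 0.59 ± 0.14 and in wild type 0.48 ± 0.14 (SE), past the threshold with the block only (limma adjusted p = 0.00255 and 0.00969, against 0.0969 and 0.21 without it). The groups did not overlap in either genotype. Of all genes, 3.87% were likewise higher without overlap in the mutant and 4.6% in wild type. The averaged call held when any 1 library was left out in both fits, and with the block when any replicate number was left out (adjusted p up to 0.0275). It was lost without a replicate term when all 4 libraries of replicate 1 (adjusted p = 0.283) or of replicate 3 (0.527) were left out. In wild type the blocked call was lost without wild-type fluvastatin replicate 1 or 3 or wild-type control replicate 2 or 3 (0.0562 to 0.0768), and without replicate 3 as a whole the blocked calls of both genotypes were lost (0.102 in the mutant and 0.232 in wild type). Without a replicate term, leaving out wild-type fluvastatin replicate 2 gave a call in each genotype (adjusted p = 0.0215 in the mutant and 0.0226 in wild type).

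The drug's effect was alike in size over the transcript models of dlk-1, with averaged log2 differences of 0.54 for a, 0.53 for b and d, 0.51 for c and 0.63 for e. Of these models only c and e share no bases in WBcel235, so the likeness of the others may partly rest on shared reads. Model e, which was the least lowered in the mutant, was called with fluvastatin (limma adjusted p = 0.0373), as were a, b and d, and c was called with the block only (0.0124, against 0.125 without it). limma called 3.04% of all transcript rows here, and 12.1% with the block. In single genotypes the block called every model but c (5.63% of all rows in the mutant, 6.5% in wild type), whose adjusted p was 0.0512 in the mutant and 0.205 in wild type. Without the block limma called 0 of the 5 models in either genotype, where 1.25% of all rows were called in the mutant and 1.63% in wild type, and at an unadjusted p under 0.05 it listed all 5 in the mutant and all but c in wild type.

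cebp-1, the C/EBP transcription factor, had 260.1, 314 and 337 normalised reads in mutants with fluvastatin, against 200.2, 169 and 257 in mutants without it. Wild type had 297, 186 and 312 with fluvastatin and 198, 128 and 217 without it. Every treated library was above the control of the same number. The mutant groups did not overlap, and 3.87% of all genes were likewise higher without overlap in the mutant. In wild type the groups overlapped through replicate 2, the lowest at both doses. The difference was 0.55 ± 0.18 (SE) over both genotypes, 1.46-fold and higher in 6 of 6 pairs, and it was called with limma's block only (adjusted p = 0.00331, against 0.236 without it). This call held in 12 of 12 fits that left out 1 library, and it was lost when all 4 libraries of replicate 3 were left out (0.0629). In single genotypes the blocked calls were close to the threshold (limma adjusted p = 0.0473 in the mutant and 0.045 in wild type). They held in 5 and 4 of 12 such fits, with an adjusted p of up to 0.192 and 0.219, and edgeR with the block did not call them (0.0503 and 0.0617).

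mak-2, the MAPKAP type kinase below PMK-3, had 424, 443 and 406 normalised reads in mutants with fluvastatin, against 359.8, 342 and 362 in mutants without it. Wild type had 411, 348 and 412 with fluvastatin and 369, 326 and 363 without it. The groups were apart in the mutant, where 3.87% of all genes were likewise higher, and overlapped in wild type. The averaged difference was 0.20 ± 0.07 (SE) and higher in 6 of 6 pairs, and it was called with limma's block only (adjusted p = 0.0293, against 0.293 without it). In 12 fits that left out 1 library each the blocked call held in 5, with an adjusted p of up to 0.0957, and it was lost without any 1 of the replicate numbers (0.105 to 0.162).

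sek-3, a MAP kinase kinase, had 655, 677 and 504 normalised reads in mutants with fluvastatin, against 546, 576 and 479 in mutants without it. Wild type had 606, 656 and 588 with fluvastatin and 532, 580.5 and 535 without it. The wild-type groups were apart, as for 4.6% of all genes in the same direction, and the mutant groups overlapped through replicate 3. The averaged difference was 0.18 ± 0.09 (SE), 1.13-fold and higher in 6 of 6 pairs, and it was called with limma's block only (adjusted p = 0.0422, against 0.685 without it). That call held in 2 of 12 fits that left out 1 library, with an adjusted p of up to 0.144, and it was lost without replicate 1 (0.193) or replicate 2 (0.270). A gene higher in 6 of 6 pairs was not rare, since 9.77% of all genes tested were.

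mkk-4, the kinase between DLK-1 and PMK-3, had 150.3, 166 and 164 normalised reads in mutants with fluvastatin, against 136, 171 and 129 in mutants without it. In wild type it had 146, 171 and 149 with fluvastatin and 136, 158 and 107 without it. The averaged difference was 0.19 (interval -0.09 to 0.46) and was not called in either fit (limma adjusted p = 0.168 with the block). pmk-3 stood at 0.12 (-0.18 to 0.41), without a call in either fit. uev-3, a ubiquitin-conjugating enzyme variant that works in the cascade with PMK-3, stood at 0.05 (-0.16 to 0.26).

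Neither repressor of DLK-1 protein passed. rpm-1 had 323, 402 and 207 normalised reads in mutants with fluvastatin, against 186, 366 and 230.2 in mutants without it, and 267, 371 and 249 in wild type with it, against 292, 372 and 146 in wild type without it. Its averaged difference was 0.23. Without a replicate term its interval of -0.36 to 0.83 allows a change in either direction. fsn-1 had 887, 1046 and 975 in mutants with fluvastatin, against 880.2, 1133 and 988 in mutants without it. In wild type fsn-1 had 859, 1049 and 867 with fluvastatin and 806, 1014 and 892 without it, and its averaged difference was -0.0040 (-0.21 to 0.20).

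**Figure D3:**
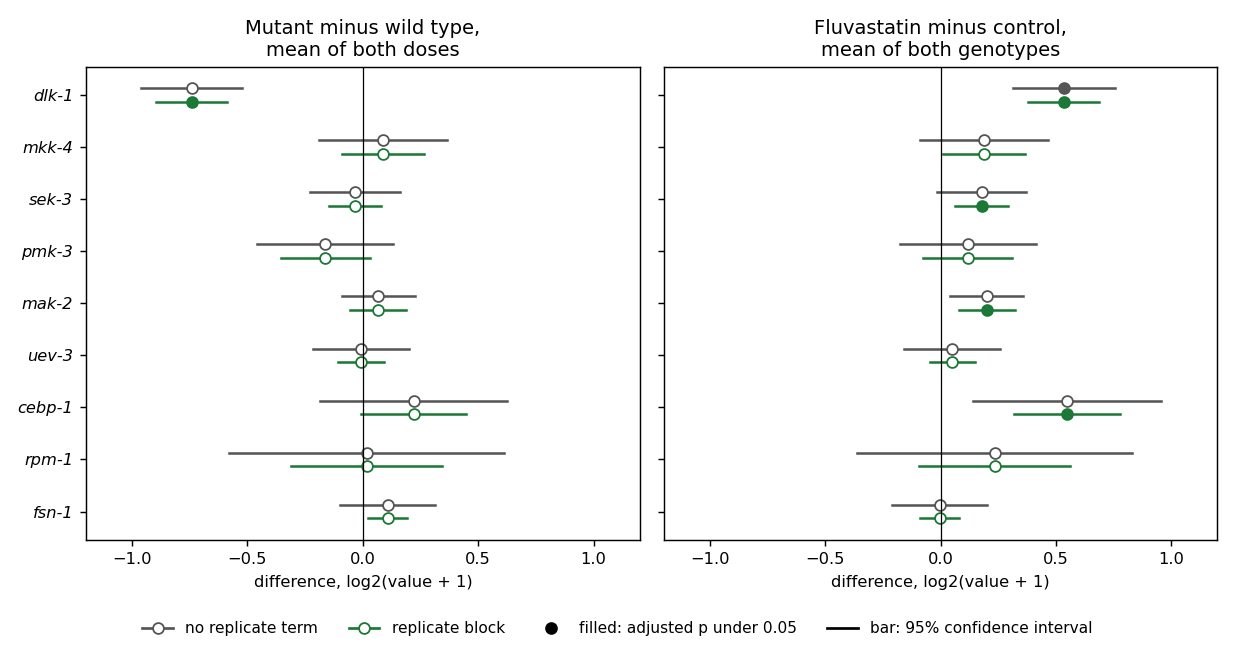
Averaged log2 differences of the 9 genes between mutant and wild type (left) and between fluvastatin and control (right), with 95% confidence intervals from limma without a replicate term (grey) and with the replicate block (green). Filled points had an adjusted p under 0.05 over all genes. dlk-1 is at -0.74 on the left and 0.53 on the right, and on the right cebp-1, mak-2 and sek-3 are filled with the block only.

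The third comparison asked whether the drug's effect differed between genotypes. The difference of the log2 effects, mutant minus wild type, lay between -0.17 for uev-3 and 0.19 for pmk-3 over the 9 members. For dlk-1 it was 0.11 (95% interval -0.33 to 0.55) and for cebp-1 0.0052 (-0.81 to 0.82). limma called 0 members and 0.0% of all genes in either fit, edgeR and DESeq2 called 0 members, and at an unadjusted p under 0.05 limma without a replicate term called none of the 9. Without a replicate term the intervals allow a sizeable difference in either direction, and the widest was that of rpm-1 (-1.15 to 1.24).

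The members differed in what they varied with. On the log2 scale, genotype took 59.9% of the spread of dlk-1 over the 12 libraries, fluvastatin 31.0% and the replicate number 3.65%. Fluvastatin took the largest share for mak-2 (56.5%) and cebp-1 (45.9%). For fsn-1 (78.6%), uev-3 (77.1%) and rpm-1 (68.9%) the replicate number took most of it, and for mkk-4 (44.6%) and sek-3 (44.4%) it took the largest share. pmk-3 had the largest share outside all 3 (41.9%).

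**Figure D4:**
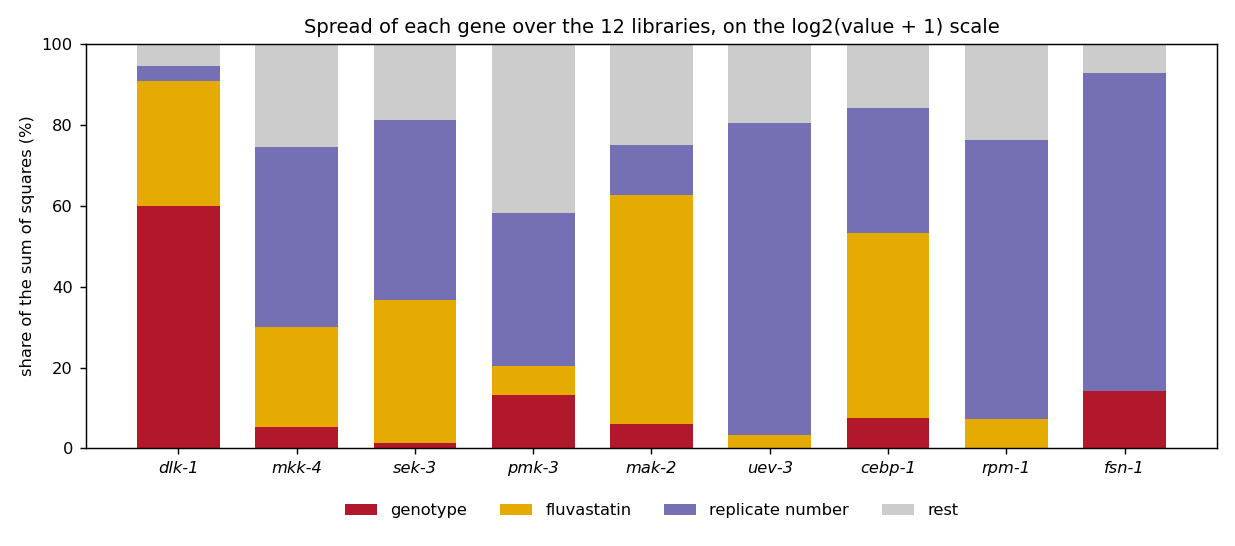
Share of the sum of squares of log2(value + 1) over 12 libraries (percent, vertical axis) taken by genotype, fluvastatin, replicate number and the rest, for each of the 9 genes (horizontal axis). Genotype is the largest part for dlk-1 (59.9%) and the replicate number for fsn-1 (78.6%), uev-3 (77.1%) and rpm-1 (68.9%).

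rpm-1, uev-3 and fsn-1 were higher in replicate 2 of all 4 groups than in any library of replicates 1 and 3. The share of all genes with this pattern was not counted. Replicate 2 also stood apart on the first principal component of all genes tested, which does not tell how many genes had this pattern. Outside the members pmk-1 had it too, with 265 to 277 normalised reads in replicate 2 and 175 to 225 elsewhere. The replicate 2 libraries held 366 to 402 normalised reads of rpm-1, 702 to 727 of uev-3 and 1014 to 1133 of fsn-1. The other 8 libraries held 146 to 323 of rpm-1, 525 to 667 of uev-3 and 806 to 988 of fsn-1. The summed level of the 15 neuron markers ran the other way, with 5397 to 6368 in replicate 2, 6776 to 7479 in replicate 1 and 6489 to 7200 in replicate 3. The sums of touch neuron, muscle, intestine and sperm markers were also lowest in replicate 2, and those of epidermis and germline markers were not. Sperm markers summed to 481 to 583 in replicate 2, against 2019 to 2349 in replicate 1 and 1644 to 1769 in replicate 3. The part of cell makeup in the members' levels was not tested. Between the study's groups the neuron sums overlapped. They were 6798 ± 597 in mutants with fluvastatin, 6475 ± 914 in mutants without it, 6271 ± 788 in wild type with it and 6354 ± 761 in wild type without it (SD, n = 3), and 0 of 15 neuron markers were called in any comparison in limma with or without the block. With fluvastatin over both genotypes the block called 12.5% of all genes in either direction and 5.94% as higher. Markers of other tissues were called lower there, with the block only. These were the troponin T genes mup-2 and tnt-2 of 8 muscle markers, the protease gene asp-1 of 7 intestine markers (also in each genotype), elt-3 of 8 epidermis markers and glh-1 of 8 germline markers. The summed level of each of these lists overlapped between the study's groups, and the part of these tissues in the members' drug effects was not tested.

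Per kb of exon, fsn-1 had the highest level of the 9 genes in every group and rpm-1 the lowest. Over the 12 libraries the mean levels were 702 ± 72.7 normalised reads per kb for fsn-1, 579 ± 56.8 for uev-3, 332 ± 116 for dlk-1, 320.3 ± 34.6 for sek-3 and 237 ± 23.1 for mak-2 (SD, n = 12). They were 223 ± 61.5 for cebp-1, 169 ± 24.7 for pmk-3, 94.7 ± 12.3 for mkk-4 and 24.5 ± 7.19 for rpm-1. Over all libraries neighbours in this order overlapped in range except pmk-3 with mkk-4 and mkk-4 with rpm-1. dlk-1 stood at different places in the order of group means, at 299 ± 20.7 in mutants with fluvastatin, where it came after sek-3, and 198 ± 11.8 in mutants without it, where it came after sek-3 and mak-2. In wild type it came before both, at 486 ± 90.9 with fluvastatin and 346 ± 34.0 without it. The ranges of dlk-1 and sek-3 were apart in mutants without fluvastatin and in wild type with it, and they overlapped in the other groups, so that their order there does not exceed the spread. Lengths are those of the annotated model, or of all exons of the gene for pmk-3, uev-3 and mak-2, and the authors' models may differ.

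pmk-3 lies in a row with the other p38 genes of the worm, which are known to share an operon. pmk-2 (F42G8.3) begins 345 bp after pmk-3, and pmk-1 (B0218.3), the p38 kinase of innate immunity, begins 145 bp after pmk-2. Per kb the levels over 12 libraries were 169 ± 24.7 for pmk-3, 117 ± 24.8 for pmk-2 and 135 ± 21 for pmk-1 (SD). pmk-1 had 265 to 277 normalised reads in replicate 2 and 175 to 225 in the other libraries, a pattern that pmk-3 did not show. Neither pmk-1 nor pmk-2 was called in any comparison, with averaged log2 differences of -0.03 and -0.25 between mutant and wild type and of 0.02 and 0.01 between fluvastatin and control.

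Of 14 genes around the cascade that were found and tested, which include its reported target tbb-6 and partners of RPM-1, limma called 2 higher and 0 lower with fluvastatin over both genotypes, and 4 and 0 with the block. Over all genes 2.09% were called higher, and 5.94% with the block. The list was chosen with earlier results of these data known, so its counts are a description and not a test. tbb-6, a beta-tubulin gene on chromosome V (12261531 to 12263368, plus strand), had 182, 190.1 and 195 normalised reads in mutants with fluvastatin, against 25.4, 71.4 and 19.8 in mutants without it. In wild type it had 381, 460.1 and 401 with fluvastatin and 48.7, 76.9 and 23.7 without it. It rose 5.57-fold in the mutant and 9.04-fold in wild type on the log2(value + 1) scale (limma adjusted p = 0.0316 and 0.00547). With fluvastatin every mutant library was below every wild-type library, at a log2 difference of -1.12 ± 0.48 (SE) that was not called (adjusted p = 1.0, and 0.442 with the block), and 3.0% of all genes were lower in the same way. The difference of the drug's effect, mutant minus wild type, was -0.70 with an interval of -2.20 to 0.80 and was not called.

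nipi-3, a Tribbles type pseudokinase known to hold down cebp-1 in worms, rose over both genotypes (log2 0.77 ± 0.11, SE, limma adjusted p = 0.0028, higher in 6 of 6 pairs). It had 905, 1002 and 813 normalised reads in mutants with fluvastatin, against 518, 654 and 455 in mutants without it, and 1001, 879 and 891 in wild type with it, against 564, 616 and 439 in wild type without it. glo-1, a Rab type GTPase of the RPM-1 and GLO-4 branch, averaged 80.4 ± 18.6 in mutants with fluvastatin, 45.2 ± 5.75 in mutants without it, 90.6 ± 19 in wild type with it and 62.4 ± 9.66 in wild type without it (SD, n = 3). It was called with limma's block only (log2 0.66, adjusted p = 0.00208, against 0.0832 without it), as was glo-4, the exchange factor that binds RPM-1, named after its values were seen (0.17, 0.0453 against 0.809). Between mutant and wild type 0 of the 14 were called in any comparison and either fit.

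Of 22 tested genes of the parallel p38 and JNK type pathways, 1 was called higher and 0 lower with fluvastatin over both genotypes, and 3 and 0 with the block, beside 2.09% and 5.94% of all genes called higher. This list too was chosen with earlier results of these data known, so its counts are a description. vhp-1, a MAP kinase phosphatase, had 2499, 2649 and 2396 normalised reads in mutants with fluvastatin, against 1759, 1706 and 1816 in mutants without it. Wild type had 2329.9, 1994 and 2194 with fluvastatin and 1788, 1437 and 1447 without it. It rose 1.41-fold over both genotypes (log2 0.50 ± 0.07, SE, limma adjusted p = 0.0023), and the groups did not overlap in either genotype. Of all genes, 3.87% were higher without overlap in the mutant and 4.6% in wild type. tir-1, an adaptor upstream of PMK-1 (log2 0.50, adjusted p = 0.0397), and svh-2, a receptor tyrosine kinase of the JNK type branch (0.19, 0.0301), were called with limma's block only, against 0.351 and 0.919 without it. Between mutant and wild type 0 of the 22 were called in any comparison and either fit.

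**Figure D5:**
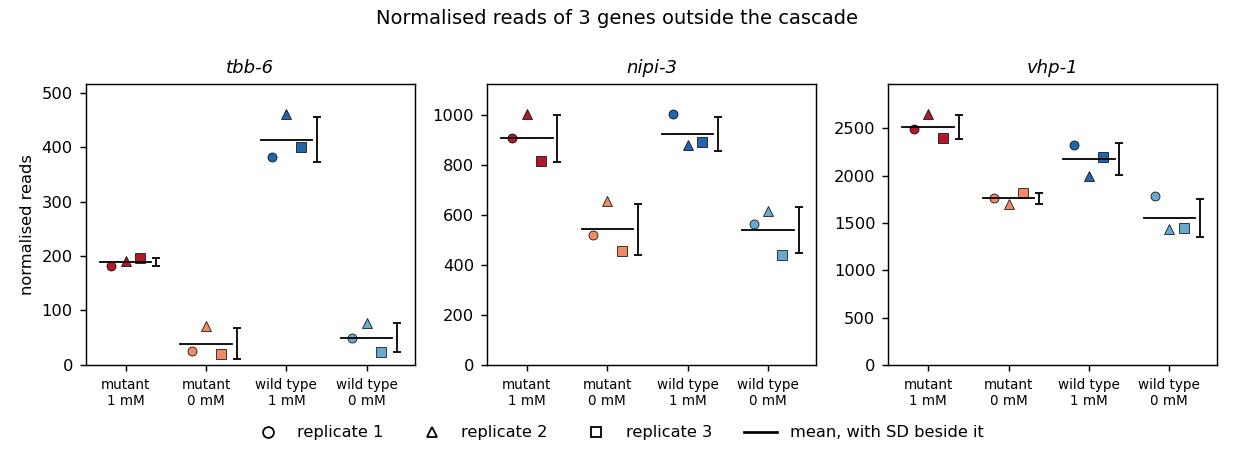
Normalised reads (vertical axes, from 0) of tbb-6, nipi-3 and vhp-1 in the 4 groups, with 1 symbol per library, lines for group means and bars for SD (n = 3). With fluvastatin tbb-6 was at 182 to 195 in mutants and 381 to 460.1 in wild type, while nipi-3 was at 813 to 1002 in mutants and 879 to 1001 in wild type.

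Likeness over the 12 libraries was measured for dlk-1, cebp-1 and pmk-3 as Pearson's r of log2 values after the mean of each replicate number was taken out, over 11153 genes with a mean of at least 50. It is a description of libraries that share groups and replicate numbers. The genes most like dlk-1 were F42G4.5 (r = 0.946), pqn-92 (0.946), the fatty acid desaturase gene fat-5 (0.941, overlapping twk-42 and W06D12.8), ptr-14 (0.924) and C13G3.1 (0.923). fat-5 averaged 325 ± 83.3 in mutants with fluvastatin, 184 ± 30.9 in mutants without it, 551 ± 121 in wild type with it and 339 ± 60.5 in wild type without it (SD, n = 3). Among the members the r with dlk-1 was highest for sek-3 (0.568) and lowest for fsn-1 (-0.667).

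Most like cebp-1 were oac-14 (r = 0.968), vhp-1 (0.953), F20D1.3 (0.948, overlapping mir-1829.2), the nuclear receptor gene sex-1 (0.945) and the member mak-2 (0.945). For mak-2 the r without the step of taking out replicate means was 0.896, and for sex-1 it was -0.313, so that its likeness rests on that step. Most like pmk-3 were flp-17 (0.926), which encodes FMRFamide-like neuropeptides, gldi-4 (0.923), vamp-8 (0.918), skr-10 (0.902) and the sperm gene spe-26 (0.899, overlapping R10H10.3). Without taking out replicate means the r was 0.191 for skr-10, 0.226 for spe-26, 0.402 for gldi-4, 0.557 for flp-17 and 0.643 for vamp-8, each lower than with that step. For oac-14 with cebp-1 it was 0.560, and for the 5 genes most like dlk-1 it was 0.657 to 0.819. None of the other 8 members was among the 5 most like pmk-3.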

How the data were processed

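Whole-worm RNA was sequenced as 50 bp single reads from a kit that does not mark strand, per the labels' protocols. The submitters' processing notes list Bowtie and DESeq2, with neither version nor role. Which build and annotation lie behind the table is not stated there. The deposited table holds a normalised signal, a read count divided by 1 factor per library, in 12 columns and 34873 rows. Whole reads were recovered for 100% of values (within 0.01 read). Sequence names of 29778 of 30301 genes matched the WBcel235 annotation of Ensembl release 115.

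All 4 groups were fitted with limma 3.58.1 (trend, robust, R 4.3.3) on log2(value + 1) over 15529 genes with at least 10 in at least 3 libraries, with two-sided tests, p-values adjusted over all genes by the Benjamini-Hochberg method and a call at 0.05. Fold changes are on this scale. The design named edgeR for raw counts and limma for normalised values, and limma was used. edgeR 4.0.16 and DESeq2 1.42.0 on recovered reads were alternatives, as were other pseudocounts, filters, scalings and left-out libraries. edgeR with the block, blocked fits without 1 library or 1 replicate number and the ratio of models c and e were added after seeing the data. The fits were tested on simulated data.

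Libraries with the same replicate number deviated together in all 18 pairs (r = 0.555 to 0.887), so the numbers were treated as pairs, which no label states. The members and gene lists were chosen with earlier results of these data known. Named are all members, set list genes, up to 3 called genes per list and comparison, and the 5 genes most like dlk-1, cebp-1 and pmk-3.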

Additional observations from a re-analysis of the deposited data

How the results depend on the processing

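The count of called members rested on the replicate term. With the replicate block it was 1 in place of 0 in each comparison of mutant with wild type, 2 in place of 0 with fluvastatin in each genotype and 4 in place of 1 over both. edgeR on recovered reads with the block, chosen after seeing the data, gave 1 between genotypes, 1 with fluvastatin in each genotype and 4 over both. Shares of all genes called by edgeR or DESeq2 are not given. DESeq2 without the block called 1 in place of 0 in each comparison of single groups and in the averaged genotype comparison, dlk-1 each time. Leaving out 1 library gave 0 to 1 for the averaged genotype difference and for the drug in each genotype, the 1 being without wild-type fluvastatin replicate 2, and left the other counts as they were. Leaving out all of replicate 2 gave 1 for these 3, and leaving out all of replicate 1 or of replicate 3 gave 0 for the averaged drug effect, with fewer samples. With the block, leaving out all of replicate 3 ended every call of members but those of dlk-1 and sek-3 for the averaged drug effect. For the dlk-1 models the block gave 4 in place of 0 between genotypes and for the drug in each genotype. Other pseudocounts, no filter, TMM scaling, edgeR without the block, fits of the compared groups only and the mean over models changed no count of members.

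Signs turned only among differences that were not called. For fsn-1 over both genotypes the drug effect was 0.0030 with TMM scaling and 0.0032 with DESeq2, and for cebp-1 the difference of drug effects was -0.0069 with DESeq2. The other turns came from leaving out libraries, over which the values ranged as follows. Between genotypes, cebp-1 ranged from -0.012 to 0.37 at 0 mM and from -0.040 to 0.43 at 1 mM. Averaged over doses, pmk-3 ranged from -0.31 to 0.00078, rpm-1 from -0.18 to 0.16, uev-3 from -0.067 to 0.047, mak-2 from -0.0050 to 0.11 and sek-3 from -0.087 to 0.045. With fluvastatin, pmk-3 ranged from -0.027 to 0.050 in wild type and fsn-1 from -0.13 to 0.052 in the mutant. Over both genotypes fsn-1 ranged from -0.051 to 0.043 and uev-3 from -0.0084 to 0.11. The difference of drug effects ranged from -0.052 to 0.21 for dlk-1, from -0.00074 to 0.38 for pmk-3 and from -0.23 to 0.23 for cebp-1. Among the averaged differences the interval without a replicate term was widest for rpm-1. Changes of that gene were the least well bounded in that fit.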
